A study of Mus musculus with 12 samples.

Results

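The data are transcript ratios of mouse tail papillomas that keep Fos, set against the RNA of 11 pooled mouse cell lines. The papillomas come from K5-SOS mice, whose keratin 5 promoter drives active Sos, the exchange factor that loads Ras with GTP, in basal keratinocytes. Their Fos alleles are floxed but intact (c-Fos fl/fl, SOS+), and their background mixes 129/Ola, C57BL/6, CBA, LVA and B6C3F1. The comparator is Universal Mouse Reference RNA (Stratagene), whose lines derive, per the labels, from hepatocytes, Leydig cells, kidney, mammary gland, embryo, alveolar macrophages, epidermis, T lymphocytes, B-lymphocyte myeloma, myoblasts and embryonic fibroblasts. The 6 arrays titled c-Fos-floxed, of 12 in the series, were taken. They hold 3 of the 6 papilloma specimens, numbered 2, 3 and 5, each hybridised on 2 spotted 2-colour arrays with the dyes exchanged. The Fos-deficient papillomas were not compared here. No normal skin was analysed, so a ratio describes papilloma tissue against cultured cells and not tumour against healthy epidermis. The ages of the mice are not given, and the sex is given as unknown for specimen 3 and is not stated for the others.

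Stratified epidermis is built by keratinocytes that divide in a basal layer on a basement membrane, then stop dividing, move outward and change their keratins, junctions and surface lipids. In the outermost living layer a cornified envelope is assembled when transglutaminases cross-link loricrin, involucrin and small proline-rich proteins beneath the membrane. A papilloma is a benign outgrowth in which Ras-activated keratinocytes still stratify and cornify over a core of connective tissue and vessels. Cell lines divide continuously in medium and lack layers, vessels and matrix of this kind.

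Each value below is a log2 ratio of papilloma over reference RNA, so that 1 stands for 2-fold higher in papilloma and -1 for 2-fold lower. It is a difference and not a level, and levels of different genes cannot be read from it. A feature, meaning a named gene or a probe without a name, was tested when all 3 specimens had a value on both arrays, which left 18746 features, of which 11929 were named genes. Papilloma over reference is the likely direction of the deposited ratios, since keratinocyte genes lay at the top and immunoglobulin genes at the bottom on every array. Which base the logarithm has is not stated, and every fold assumes base 2. The array number limits the precision, and the reference is 1 RNA pool, so its own spread is not part of any test. The labels number the specimens without saying that each is a separate animal, and p-values measure the spread between these specimens only. In bulk tissue, fewer cells of a type and less RNA per cell cannot be told apart.

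Papilloma and cell lines differed widely in the transcripts measured, though many of the ratios were small. By limma's test against 0, at a Benjamini-Hochberg adjusted p under 0.05, 6428 features (34.3%) were higher in papilloma and 7611 (40.6%) were lower. Without specimen 2 these counts were 2650 and 5538. A test of a difference of more than 2-fold (limma's treat) called 986 features higher (5.26%) and 1482 lower (7.91%), among them 729 and 1054 named genes. All 2468 of these had the same sign on all 6 arrays, against 11243 of the 14039 calls against 0. Below, "by more than 2-fold" refers to this stricter test, and such counts of a gene list are set beside 5.26% and 7.91%. Counts against 0 are set beside 34.3% and 40.6%. The lists were chosen with earlier results of these data known, so these shares describe a list and do not test it. Where a list is said to have no member past the 2-fold test on a side, none passed at an unadjusted p under 0.05 either. The exceptions are Spry1 (higher) in the Ras list and Cox4i1 (lower) in the respiratory-chain list. The median ratio over all features was -0.06. The ratios were lopsided, with 99 named genes above 5 and the lowest named gene at -6.39. Only 13 named genes lay below -4, against 186 above 4.

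Small positive ratios depended on which dye the papilloma carried. Between 0.1 and 0.3 lay 4321 features, or 23.1% of those tested. Of the 6428 features called higher against 0, 3531 had a mean of 0.4 or less. Their median was 0.39 with the papilloma in Cy5 and 0.09 with the papilloma in Cy3, and 1172 of them lay below 0 in Cy3. For the 716 called features with a mean above 2 the medians were 3.10 in Cy5 and 3.31 in Cy3, and none changed sign. The hair keratin gene Krt31, at 0.24, sits in this band near 0, with 0.53 in Cy5 and -0.05 in Cy3. The embryonic gene Lin28a, at 0.40, did not follow this, with 0.30 in Cy5 and 0.50 in Cy3. Ratios of this size are named below only as members that stood near 0, and their calls against 0 can depend on the dye.

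**Figure D1:**
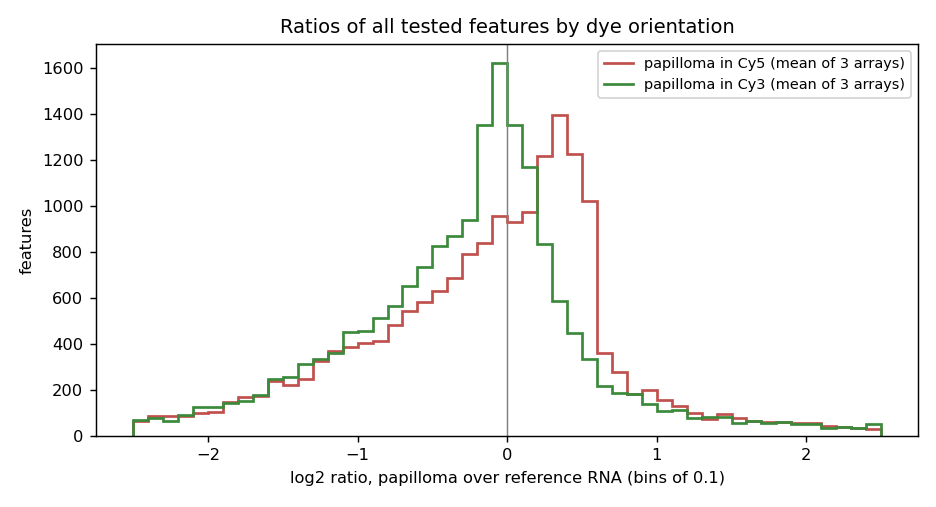
Number of tested features (vertical axis) by log2 ratio of papilloma over reference RNA in bins of 0.1 (horizontal axis, shown from -2.5 to 2.5), with the papilloma in Cy5 (red) and in Cy3 (green), each the mean of 3 arrays. The fullest bin lies between 0.3 and 0.4 in Cy5 and between -0.1 and 0 in Cy3, while the tails of both curves run together.

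Keratinocyte genes made up the top of the ranking. The 15 named genes with the highest mean had ratios between 6.42 and 6.89, and no single array fell below 5.88. Several of them act in cornification. Sprr2i, a small proline-rich envelope precursor, had 6.87, 6.65 and 7.15 in specimens 2, 3 and 5, or 119-fold (adjusted p = 0.000151 for more than 2-fold). The ceramide hydroxylase Degs2 had 6.64, 7.01 and 6.84. Gjb6 and Gjb2, which encode the epidermal connexins 30 and 26, averaged 6.80 ± 0.006 and 6.42 ± 0.24 (SD, n = 3). Casp14, a protease of the cornifying layer, averaged 6.62, and Tgm3, a transglutaminase, averaged 6.54. The rest were Trex2, Klk9, Gm94, Csta1, Serpinb12, Krt17, Lce1b, Sprr2d and Il1f9, between 6.42 and 6.67. For the 15 genes the SD over specimens was at most 0.27.

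**Figure D2:**
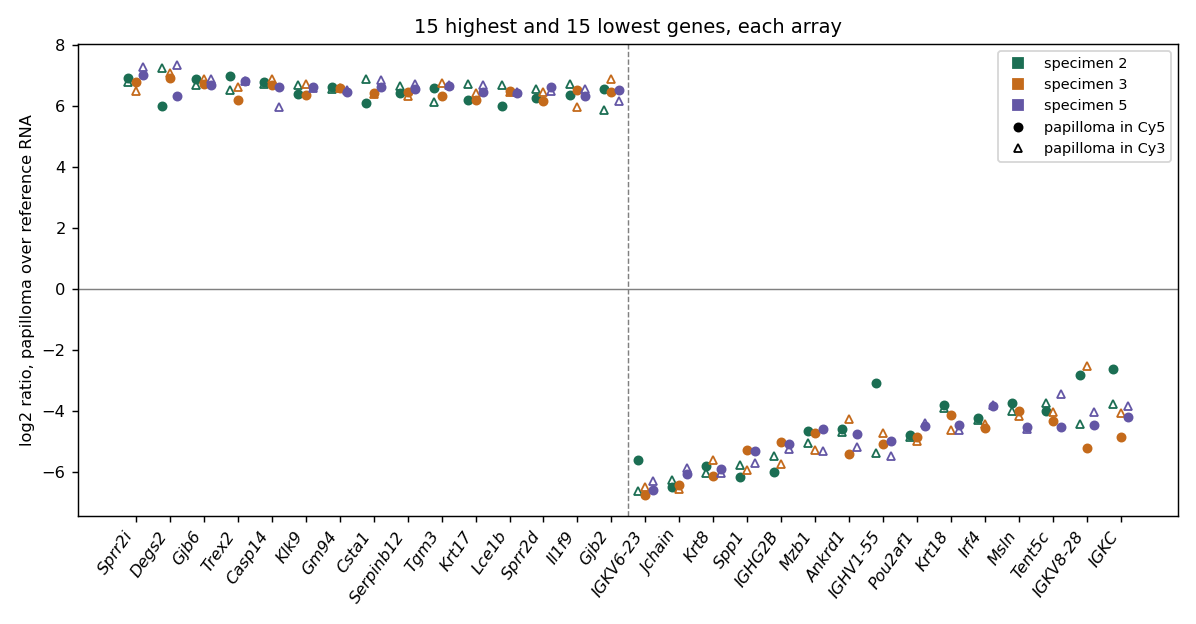
Log2 ratio of papilloma over reference RNA (vertical axis) on each array for the 15 named genes with the highest mean and the 15 with the lowest (horizontal axis), by specimen (colour) and by the papilloma's dye (filled circles Cy5, open triangles Cy3). The highest 15 lie between 5.88 and 7.34 on every array, and the lowest 15 lie between -6.73 and -2.51.

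Genes that define stratified epithelium were high. The direction of the ratios was itself taken from keratinocyte and immunoglobulin genes, so the side on which they lie is not a separate finding. Krt5 and Krt14, the keratin pair of basal cells, had 3.51, 3.71 and 3.51 and 5.21, 5.45 and 5.34 in specimens 2, 3 and 5. Krt1 and Krt10, the pair of the spinous layers, had 4.46, 4.39 and 4.40 and 5.49, 5.32 and 5.40. Loricrin (Lor) had 5.89, 5.80 and 5.77. Trp63, the transcription factor required for stratification, averaged 2.82 ± 0.12 (SD, n = 3), or 7.06-fold. Where a gene had several probes their mean was taken, and the 2 probes of Trp63 lay far apart at 0.52 and 5.12, as did those of Krt5 at 2.15 and 5.01. All 6 genes were higher by more than 2-fold, and the 3 specimens differed by at most 0.24 for each gene.

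Of 18 basal-layer genes measured, 13 were higher by more than 2-fold and none was lower, with a median of 3.13. Several anchor basal cells to the basement membrane through laminin and hemidesmosomes. Lama3, a chain of laminin-332 and the highest of the list, had 6.43, 6.24 and 5.91. Col17a1 averaged 4.60, Lamb3 3.56 and Itgb4 3.47. The integrin chain Itga6, partner of Itgb4, averaged 1.78 ± 0.40 (SD, n = 3). The 3 other integrin-linked genes did not share this. Itgb1 had a mean of 0.13 and did not pass the test against 0. Dst, which encodes plakins of hemidesmosomes and of other cells, had 3 probes between -2.26 and 4.46, so that its mean of 0.09 says little. Itga3 had -1.21, -0.43 and -2.50, the widest spread of the list, and passed only the test against 0 (limma adjusted p = 0.0470), a call lost without specimen 2 (adjusted p = 0.142).

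Nearly all suprabasal genes measured were clearly higher. Of 22, 20 were higher by more than 2-fold, and of the other 2, called only against 0, Gjb5 averaged 1.07 and Cldn4 stood near 0 at 0.29. The median was 4.81. Desmosome components, which tie suprabasal cells together, included Dsc1 at 6.23, Dsp at 6.10, Pkp1 at 5.51 and Dsc3 at 5.33. Cldn1, the tight-junction claudin of the epidermal barrier, averaged 4.84. The lowest of the 20 was Lgals7, a keratinocyte galectin, at 1.68.

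Cornified-envelope genes had the highest median of all lists, 5.49. The list has 52 names, of which 38 are on the array and 34 had a value in all 3 specimens. Of these, 31 were higher by more than 2-fold, and Lce3b, Sprr4 and Kprp, at 2.42, 1.60 and 1.51, were higher against 0. Filaggrin (Flg), the protein that bundles keratin filaments, had 6.12, 6.13 and 6.39 as the mean of 2 probes at 5.32 and 7.11. Involucrin (Ivl) had 5.23, 5.23 and 6.29, so that specimen 5 stood 1.06 above the nearer of the others. The cross-linking enzymes Tgm3, Tgm5 and Tgm1 averaged 6.54, 5.28 and 3.76. Members of the Sprr2 and Lce families are close copies of each other, and a probe may take RNA from several of them.

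AP-1, the dimer of Fos and Jun proteins, is known as a regulator of several cornification genes and of matrix proteases, and the sequence around their start sites was read for its motif. RefSeq windows (GRCm38.p6) run from 250 bases before a gene's start to 50 after it. The letters TGANTCA, an AP-1 motif that reads alike on both strands, were found in 12 of 32 windows of cornified-envelope genes (37.5%), against 6.02% of 12127 windows of all tested genes. Suprabasal genes held them in 5 of 14 windows (35.7%) and basal genes in 1 of 12 (8.33%). Many envelope genes are Lce and Sprr2 copies, so the 32 windows are not independent counts. The TATA box letters TATAAA, searched on both strands, were in 14 of the 32 (43.8%), against 8.59% of all windows. The 2 motifs share no letters in the windows printed. Base composition differed too, with a median GC content of 46.8% in the 32 windows and 60.0% in all windows, and its part in these shares was not tested. A few windows with both motifs and 1 with neither are shown, each from 5′ to 3′ on the gene's own strand, with motif matches in capitals. They are loricrin, involucrin, the gene with the highest ratio, a late envelope gene, and the collagenase Mmp13.
Lor, chr3:92083093-92083392, minus strand: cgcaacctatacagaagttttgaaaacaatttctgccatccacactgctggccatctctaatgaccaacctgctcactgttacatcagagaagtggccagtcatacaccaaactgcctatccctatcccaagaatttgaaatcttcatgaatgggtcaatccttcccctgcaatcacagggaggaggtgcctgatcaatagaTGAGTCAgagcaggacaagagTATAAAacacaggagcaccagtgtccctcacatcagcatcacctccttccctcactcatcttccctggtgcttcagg
Ivl, chr3:92573686-92573985, minus strand: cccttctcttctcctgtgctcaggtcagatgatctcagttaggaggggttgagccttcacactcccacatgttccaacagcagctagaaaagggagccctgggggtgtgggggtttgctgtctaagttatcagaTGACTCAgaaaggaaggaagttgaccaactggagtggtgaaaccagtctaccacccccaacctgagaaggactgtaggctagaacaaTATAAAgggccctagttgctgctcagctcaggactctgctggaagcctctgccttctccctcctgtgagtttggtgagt
Sprr2i, chr3:92407741-92408040, plus strand: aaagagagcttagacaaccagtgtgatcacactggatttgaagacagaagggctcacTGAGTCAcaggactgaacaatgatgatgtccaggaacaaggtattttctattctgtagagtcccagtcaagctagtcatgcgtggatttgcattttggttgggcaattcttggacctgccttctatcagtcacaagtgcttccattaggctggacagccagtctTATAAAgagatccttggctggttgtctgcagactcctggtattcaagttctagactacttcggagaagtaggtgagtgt
Lce1b, chr3:92656877-92657176, minus strand: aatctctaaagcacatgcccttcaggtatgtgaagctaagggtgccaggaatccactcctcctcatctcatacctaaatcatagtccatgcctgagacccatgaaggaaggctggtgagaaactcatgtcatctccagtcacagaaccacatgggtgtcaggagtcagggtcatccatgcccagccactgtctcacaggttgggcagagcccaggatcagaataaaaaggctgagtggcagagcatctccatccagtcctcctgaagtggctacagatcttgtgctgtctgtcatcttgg
Mmp13, chr9:7272264-7272563, plus strand: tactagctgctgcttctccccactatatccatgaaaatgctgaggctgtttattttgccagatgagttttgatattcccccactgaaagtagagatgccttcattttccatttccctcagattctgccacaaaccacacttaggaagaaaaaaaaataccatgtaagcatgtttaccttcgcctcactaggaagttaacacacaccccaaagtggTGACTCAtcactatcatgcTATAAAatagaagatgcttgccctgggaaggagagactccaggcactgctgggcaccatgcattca
The AP-1 match begins at -48 in Lor, -116 in Ivl, -193 in Sprr2i and -35 in Mmp13, counted in bases before the start. The TATA match begins at -27, -29, -29 and -16 in the same genes. The Lce1b window, of a gene at 6.43, holds neither set of letters. Over all 683 windows of named genes higher by more than 2-fold, 12.4% held the AP-1 letters, against 4.87% of 1108 windows of genes lower by more than 2-fold. A match is a string of letters and was not measured as a binding site.

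Genes of barrier lipids and of the proteases that shed dead cells followed the same pattern. Of 28 measured, 23 were higher by more than 2-fold and none was lower by that margin, with a median of 3.69. Elovl4, which makes very long-chain fatty acids for ceramides, averaged 5.99. The epidermal lipoxygenases Alox12b and Aloxe3 averaged 3.19 and 3.16, and Abca12, the lipid transporter of lamellar granules, averaged 3.05 over 2 probes at 0.74 and 5.35. Spink5, an inhibitor of kallikreins, averaged 4.00, beside Klk10 at 6.40, Klk6 at 5.95 and Klk7 at 3.04. Short of the 2-fold test were Ugcg, Cyp4f39 and St14, at 1.07, 0.45 and 0.34. So were Klk14, at -0.18 and between -0.38 and 0.12 on the 6 arrays, and Alox8, at 0.88, 0.61 and 3.15 (limma adjusted p = 0.0713 against 0).

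Many of these genes lie side by side in the genome. When the 11857 tested genes that RefSeq places on a chromosome were put in order, 204 of the 725 higher by more than 2-fold (28.1%) had a neighbouring tested gene that was also called higher. Of the other 11132 genes, 10.4% had such a neighbour. Runs of at least 3 called genes in a row numbered 18 on the higher side and held 82 genes. The longest had 9 genes, Ivl and 8 Lce1 genes, with means between 4.10 and 6.43. Another held 8 Sprr genes between Sprr2d and Sprr1a, with means between 4.43 and 6.89. The kallikreins formed a run of 8 from Klk12 to Klk5, with means between 3.04 and 6.58. At the edges of this run Klk14 had -0.18 and Klk4 0.02. Chromosome 18 carried a run of 7 with the desmosomal cadherins Dsc3, Dsc2, Dsc1, Dsg1a and Dsg3. A run of 5 on chromosome 2 consisted of the interleukin-1 family genes Il1f8, Il1f9, Il1f6, Il1f5 and Il1rn. Genes lower by more than 2-fold also had called neighbours, at 25.3% against 15.7% of the other genes, but their longest run had 5 genes. These neighbours are often paralogs with similar probes, so they are not independent measurements.

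**Figure D3:**
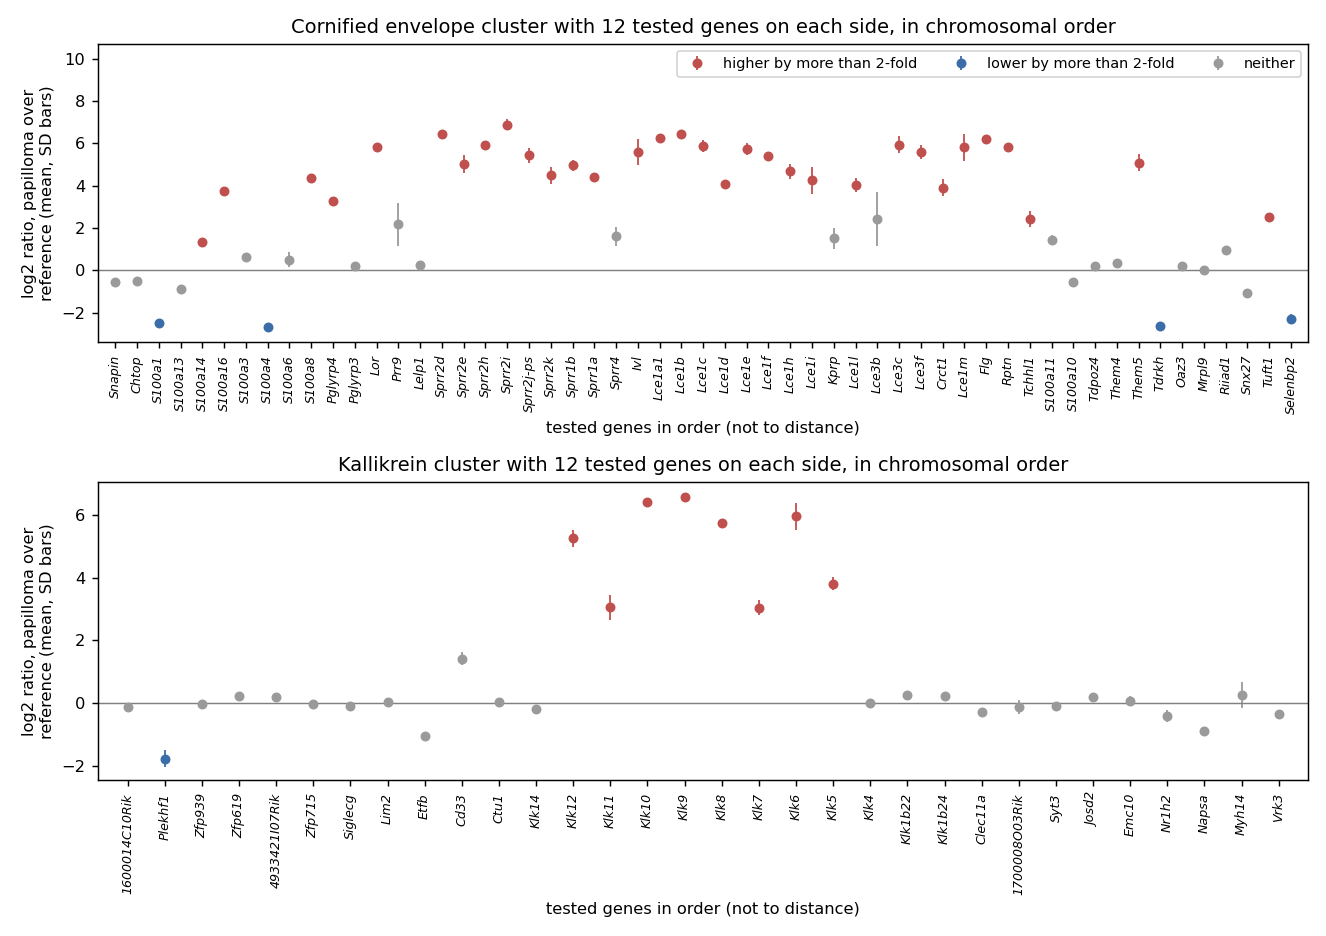
Mean log2 ratio of papilloma over reference RNA (vertical axis, bars show the SD over 3 specimens) for tested genes in chromosomal order (horizontal axis, not to distance) across the cornified-envelope cluster (top) and the kallikrein cluster (bottom), with 12 tested genes on each side. Red genes were higher by more than 2-fold, blue genes lower, and grey genes neither. The 8 kallikreins from Klk12 to Klk5 lie between 3.04 and 6.58 while Klk14 and Klk4 beside them lie at -0.18 and 0.02.

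Genes that keratinocytes use in wounds and hyperplasia were high as well. Of 25 measured members of the activated-keratinocyte list, 19 were higher by more than 2-fold and 2 were lower, with a median of 3.67. The wound keratins Krt17, Krt6a, Krt6b and Krt16 averaged 6.47, 5.53, 5.18 and 4.83. Il1f9, Il1f8 and Il1f6, the mouse genes of interleukin 36, averaged 6.42, 5.91 and 5.35. S100a8, an alarmin subunit also abundant in neutrophils, had 4.23, 4.54 and 4.28, and the defensin Defb4 averaged 4.45. In the other direction, the defensin Defb3 had -2.05, -1.75 and -1.89 and the siderophore binder Lcn2 had -1.72, -1.36 and -1.74.

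Of 25 transcription and splicing factors of epidermis, 14 were higher by more than 2-fold and none was lower, with a median of 1.92. The epithelial splicing factor Esrp1 averaged 5.86 and the homeodomain protein Hopx 5.54. Grainyhead factors, which control barrier genes, followed with Grhl1 at 4.22 and Grhl2 at 3.59. Dlx5, Ehf and Dlx3 averaged 3.80, 3.62 and 3.29. Klf4, a barrier regulator, averaged 0.77 and was called only against 0.

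Epithelial genes did not move as a block. Among 23 junction and simple-epithelium genes, 11 were higher and 2 lower by more than 2-fold. E-cadherin (Cdh1) had 5.76, 5.73 and 5.85, and the trafficking protein Rab25 averaged 5.11. Krt8 and Krt18, the keratin pair of simple, single-layered epithelia, were among the lowest genes measured. Krt8 had -5.91, -5.86 and -5.95, or 60.1-fold lower, and Krt18 had -3.84, -4.37 and -4.53. Krt19 averaged -0.78, whereas Krt7 and Epcam, at -0.00 and -0.14, did not pass the test.

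The hair-follicle list lost 15 of its 31 arrayed genes for want of a value in all specimens, and 3 of those had none on any array. Among the 16 measured, 3 were higher by more than 2-fold, led by Dlx3 and Padi3 (2.22), and Lef1, a transcription factor of the hair matrix, was lower at -2.41. The sebaceous list had 3 of 17 higher by more than 2-fold, Cidea at 3.45, Acsbg1 at 2.65 and Dgat2 at 2.29. Its lipogenic members Fads2 and Soat1 were lower at -2.74 and -1.75. Scd1 averaged -0.93 and Fasn -0.38, the second not past the test.

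Genes of blood vessels were higher in papilloma. Of 17 endothelial genes measured, 10 were higher by more than 2-fold and 16 against 0, none lower, with a median of 2.10. Pecam1 averaged 1.43 and passed only the test against 0, and Eng, at 0.765, did not pass it. Flt4, Flt1 and Selp, also called only against 0, stood near 0 at 0.38, 0.33 and 0.24. Plvap, which forms the diaphragms of capillary pores, had 3.96, 4.65 and 4.31. The sialomucin Emcn had 3.50, 3.92 and 4.18, and the receptors Tie1, Cd93 and Kdr averaged 3.81, 3.62 and 3.11. Cdh5, a defining endothelial cadherin, had no value on any of the 6 arrays. Hbb-b1, a haemoglobin chain of red cells, had 3.32, 3.83 and 3.43 as the mean of 2 probes at 1.15 and 5.90, and Fabp4, a fatty-acid binder of adipocytes and of capillary endothelium, had 5.82, 6.31 and 6.37. The adipocyte genes Plin1 and Lep stood at 0.19 and 0.20, and Lpl was lower at -1.80.

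Immune cell genes differed by cell type. Some mast cell genes were higher, with the proteases Cma1 at 3.45, 3.01 and 4.33, Cpa3 at 3.23, 2.62 and 4.10 and Tpsb2 at a mean of 2.82. These 3 of the 8 measured genes of that list passed the 2-fold test. The protease Mcpt4 averaged 2.26 and passed only the test against 0, Tpsab1 stood at 0.26, and Mcpt2, at -0.17, did not pass the test. Macrophage genes divided. The complement subunits C1qc and C1qa averaged 3.56 and 1.92 and the scavenger and mannose receptors Cd163 and Mrc1 2.65 and 2.60, all higher by more than 2-fold. Cd14 and the Fc receptor Fcgr1 averaged -1.47 and -1.58, lower by that margin, and the F4/80 gene Adgre1 averaged -1.41. H2-Aa, an MHC class II chain of antigen-presenting cells, had 4.40, 3.92 and 5.71, whereas its chaperone Cd74 had 0.29, 0.49 and 1.84 and did not pass the test (adjusted p = 0.0847). No gene of the T and NK cell list was higher by more than 2-fold. The receptor component Cd3e averaged -2.44 and its kinase Zap70 -2.12. The reference contains a macrophage and a T-lymphocyte line, and their part in these ratios was not tested.

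Connective tissue genes were near balance, with 3 of 36 higher and 5 lower by more than 2-fold and a median of -0.05. Mfap4, a microfibril protein, had 3.27, 4.17 and 4.98, and Postn, a matricellular protein of tumour stroma, had 2.14, 3.28 and 3.81. Dermatopontin (Dpt) averaged 2.83. The collagen chains Col1a1 and Col1a2 averaged -0.03 and 0.21. The mesenchymal factor Prrx1 and the matrix protein Fbln2 both averaged -2.59.

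**Figure D4:**
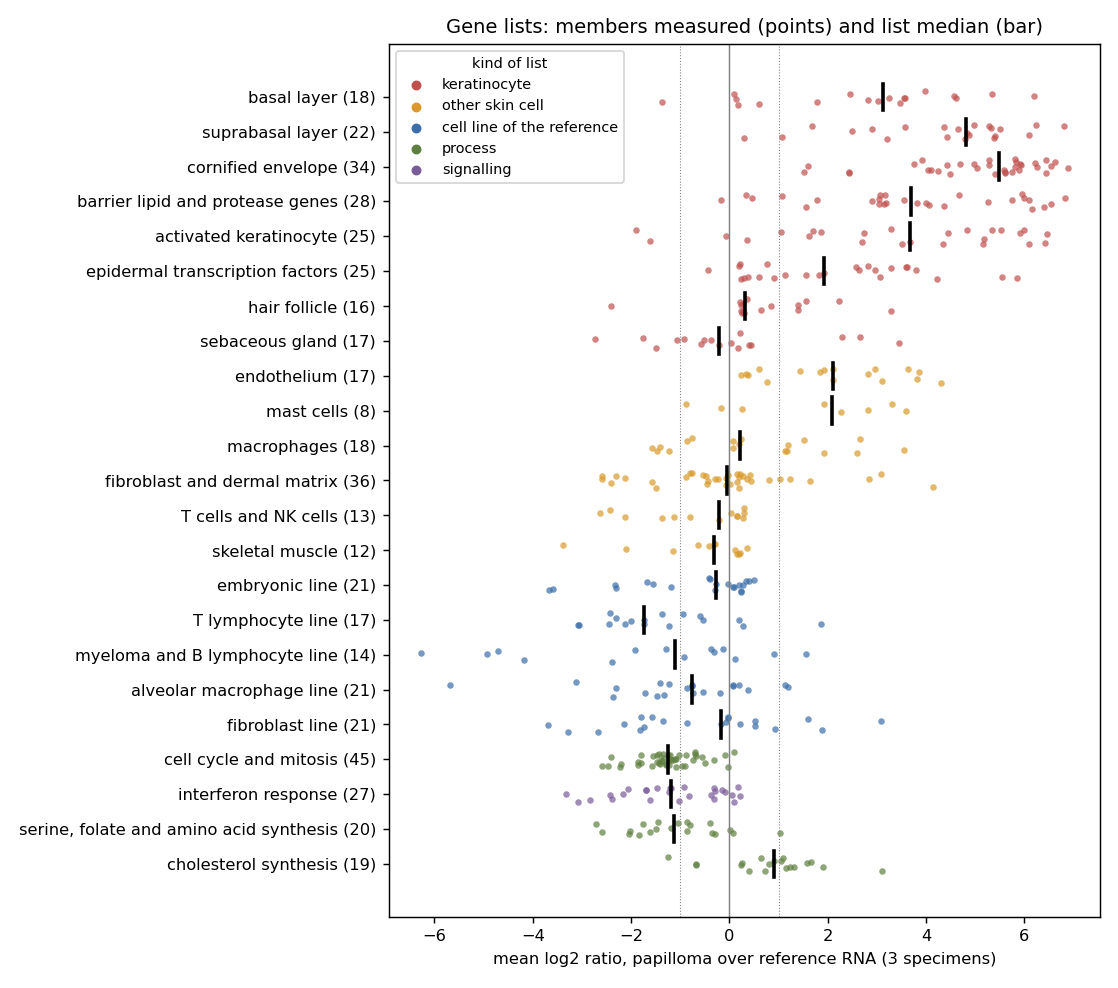
Mean log2 ratio of papilloma over reference RNA in 3 specimens (horizontal axis, dotted lines at -1 and 1) for the measured members of 23 gene lists (rows, number of measured members in brackets), with each list's median as a black bar and the kind of list by colour. Medians of the upper 5 keratinocyte lists lie between 3.13 and 5.49, and those of the T lymphocyte, cell cycle, serine and interferon lists lie between -1.74 and -1.12.

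At the low end stood genes of plasma cells, and the immunoglobulin genes among them had served to take the direction of the ratios. The named gene with the lowest ratio was an immunoglobulin light-chain gene listed as IGKV6-23, with -6.11, -6.61 and -6.45. Jchain, which joins secreted antibody units, had -6.37, -6.49 and -5.96, or 77.4-fold lower. The plasma-cell chaperone Mzb1 had -4.84, -5.00 and -4.95. The B-lineage regulators Pou2af1 and Irf4 averaged -4.72 and -4.18. Of the 15 lowest genes, 5 were immunoglobulin genes, and such gene segments resemble each other, so their probes may share RNA. The remaining genes of the 15 were Krt8, Krt18, Spp1, Ankrd1, Msln and Tent5c. Of 14 genes on the myeloma list, 6 were lower by more than 2-fold, and Ell2, an elongation factor used by plasma cells, was higher at 1.56.

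The lists of the other pooled lines differed. The T-lymphocyte list had 9 of 17 lower by more than 2-fold and 14 against 0, with Tcf7 at -3.07 and the leukocyte GTPase Rac2 at -3.05. Its member Bcl11b, a zinc-finger factor also known in skin, was higher at 1.76, 2.16 and 1.65. Of 21 genes on the alveolar-macrophage list, 5 were lower by more than 2-fold and 15 against 0. The secreted phosphoprotein Spp1 had -5.95, -5.60 and -5.49, and the chemokine Ccl3 averaged -3.13. The embryonic list had 10 of 21 lower (47.6%) and 7 higher (33.3%) against 0, beside 40.6% and 34.3% of all features. Its highest member lay at 0.49. By more than 2-fold 6 were lower, namely the imprinted genes H19, Dlk1 and Igf2 at -3.67, -3.58 and -2.32, together with Hmga2, Igf2bp3 and Dppa4. The fibroblast-line list had the same counts against 0, 10 of 21 lower and 7 higher. Of these genes 6 were lower and 2 higher by more than 2-fold, the lower led by the collagen cross-linker Lox at -3.69 and the galectin Lgals1 at -3.29. Only 8 of 28 arrayed hepatocyte genes had a value in all specimens, of which 4 were higher and 4 lower against 0, and only complement C3, at -3.16, was lower by more than 2-fold. Albumin (Alb), named after its values were seen, had a value on 5 of the 6 arrays and lay between 1.15 and 2.13 on them.

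Proliferation genes were lower in papilloma than in the cell lines. None of 45 cell-cycle genes was higher, 41 were lower against 0 and 11 were lower by more than 2-fold, with a median of -1.24. Mki67, the proliferation antigen, had -1.35, -1.47 and -1.40. The replication helicase gene Mcm2 had -2.49, -1.82 and -3.11. The methylation-maintenance gene Uhrf1 had -2.42, -2.37 and -2.98 as the mean of 2 probes at -3.74 and -1.44. E2f1, a driver of S phase, averaged -2.41. Rrm2, Kif23, Hells and Ccne1, between -0.32 and 0.09, did not pass the test. No window of the 43 that RefSeq gives for measured members of this list held the AP-1 letters, beside 6.02% of the windows of all tested genes. The difference was not tested.

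Biosynthesis divided by pathway. Of 20 genes of serine, folate and amino acid synthesis, 17 were lower against 0 and 6 by more than 2-fold. Among these were the mitochondrial folate enzymes Mthfd1l at -2.71 and Mthfd2 at -1.84. Cholesterol synthesis ran the other way, with 14 of 19 higher against 0, 3 of them by more than 2-fold, and a median of 0.91. Hsd17b7 had 3.39, 2.73 and 3.18, and Fdft1, which makes squalene, averaged 1.91. Glycolysis and hypoxia genes had 4 of 23 lower by more than 2-fold, including Ndrg1 at -2.82 and the carbonic anhydrase Car9 at -2.47, while the related Car12 was higher at 2.95. Respiratory-chain genes stayed small, with none of 35 past the 2-fold test in either direction and a median of -0.31.

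Interferon-response genes were lower, with 9 of 27 by more than 2-fold, 18 against 0, and a median of -1.18. The ISG15 protease Usp18 had -3.47, -3.11 and -3.41. Ifi44 and Oasl1 averaged -3.07 and -2.84, and the immunoproteasome subunit Psmb8 had -2.95, -2.60 and -1.58. The antiviral gene Mx1, at 0.22, was the only member called higher against 0, and it lay at -0.00 with the papilloma in Cy3. Cytokine genes spread to both sides, with 6 of 31 higher and 7 lower by more than 2-fold. Il18, which keratinocytes store, had 4.16, 3.86 and 4.85, and the chemokine Ccl8 had 3.58, 3.84 and 4.72. Il24 and Il33 averaged 3.19 and 2.53. The macrophage growth factor Csf1 had -3.25, -2.86 and -3.36.

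Fos itself, intact in these mice, was lower in papilloma than in the cell lines. It had -1.30, -0.56 and -1.56 in specimens 2, 3 and 5, a mean of -1.14 ± 0.52 (SD, n = 3), past the test against 0 (limma adjusted p = 0.0143) and not past the 2-fold test. Without specimen 2 this call was lost (adjusted p = 0.0752, mean -1.06). The partner gene Junb had -2.23, -1.57 and -3.11, and Fosb and Fosl2, at -1.60 and -1.53, were lower by more than 2-fold. Atf3, a stress-induced relative, was higher at 1.34 in each specimen. Jun had a value on 1 of the 6 arrays. Of 9 measured heat-shock and immediate-early genes, among them Fos, Fosb, Junb and Atf3, 3 were lower and 2 higher by more than 2-fold. Besides Fosb the lower were Egr1 at -2.41 and Zfp36 at -1.93, and besides Atf3 the higher was the small heat-shock gene Hspb1 at 2.82.

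No probe was named Sos1, so the transcript of Sos itself was not checked. Along the pathway that Sos drives, none of 26 Ras and ERK pathway genes was higher by more than 2-fold and 3 were lower. Against 0, 11 were higher (42.3%) and 8 lower (30.8%), beside 34.3% and 40.6% of all features. The adaptor Grb2, which carries Sos to receptors, had -2.16, -1.69 and -2.42, and Rras averaged -1.70. Hras averaged 0.81 over 2 probes at 0.20 and 1.42, and Nras averaged 0.48. Upstream, the ligands of the epidermal growth factor receptor differed. Epgn (epigen) had 5.59, 5.08 and 6.02, or 47.3-fold, and Hbegf had 1.73, 1.54 and 1.58. Ereg, at 1.53, 1.21 and 2.32, passed only the test against 0. The receptor gene Egfr had 0.38, 0.49 and 0.32 as the mean of 3 probes between -0.34 and 0.93, and Lrig1, which restrains the receptor, was lower at -1.72.

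Among Notch genes, which promote spinous fate, 3 of 16 were higher by more than 2-fold, namely the ligand Jag1 (2.13, 3.40 and 3.22), the target Heyl at 2.02 and the receptor Notch1 at 1.89. The nuclear effector Rbpj was lower at -2.12. The Wnt list had 6 of 30 higher by more than 2-fold. They included the receptor Fzd6 at 2.82, the inhibitors Sfrp1 and Dkk2 at 2.47 and 2.29, and the ligand Wnt5a at 2.25. Of the 5 lower, the receptor Fzd2 had -3.92, -3.07 and -4.03, and Tcf7 and Lef1 are the nuclear effectors named above. TGF-beta and BMP genes had 1 higher, Bmp7 at 2.29, and 6 of 32 lower. Latent binding protein Ltbp3 had -3.91, -3.90 and -3.73, and the signal transducer Smad3 averaged -2.21.

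Matrix proteases and their inhibitors went both ways. Of 31 measured, 3 were higher and 4 lower by more than 2-fold. Against 0, 9 were higher (29.0%) and 13 lower (41.9%), beside 34.3% and 40.6% of all features. The collagenase Mmp13, whose promoter window is printed above, and the stromelysin Mmp10 had 4.09, 3.41 and 3.80 and 4.08, 3.20 and 3.99. The cathepsin Ctsk averaged 3.04. Lower by that margin were Ctsz at -3.82 and the inhibitors Timp2, Timp3 and Timp1 at -3.54, -1.88 and -1.81. The gelatinase Mmp9, at -0.69, did not pass the test.

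Posterior Hox genes mark positions toward the tail in the embryo. Hoxd11 had 1.70, 2.35 and 2.77 and was the only one of 13 higher by more than 2-fold, beside 5.26% of all features. Hoxd9 of the same cluster averaged 1.06. The 13 did not move together, with 6 higher and 2 lower against 0, a median of 0.16 and the lowest at -1.79. None of 15 anterior Hox genes was higher by that margin, and Hoxc6 had -1.84, -1.95 and -2.20.

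The 3 papillomas were alike, with a median SD of 0.13 over all features, but specimens differed in some gene groups. Specimen 5 had the lowest ratio for 36 of 45 cell-cycle genes and the highest for 26 of 36 fibroblast and matrix genes, 18 of 27 interferon genes and 6 of 8 mast cell genes. Over all 11929 named genes it was lowest in 40.8% and highest in 32.9%. These counts rank correlated genes within 3 specimens and carry no test. Among genes lower by more than 2-fold, specimen 3 was least low in 600 of 1054 (56.9%). Over all named genes it had the highest ratio in 40.8%. The medians of the 1054 genes were -1.95, -1.76 and -1.997 in specimens 2, 3 and 5.

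The 10 genes with the largest SD between specimens were chosen for that spread, and each is given as a description. Eif2s3y, on the Y chromosome, had -3.39, -2.92 and 2.61 in specimens 2, 3 and 5, and its Y-linked companion Kdm5d had -0.91, -0.81 and 0.47. Specimen 5 also stood apart in Tslp, an epithelial cytokine (-0.68, -1.90 and 2.38), in the hair-shaft gene Krtap19-3 (0.16, 0.34 and 3.55), in Wfdc21 (1.92, 1.04 and 4.26), in the metal transporter Slc39a8 (-0.996, -1.20 and 1.76) and in Alox8. Mal, a membrane-raft protein, was low only there (3.71, 3.88 and 0.20). Bfsp1 separated specimen 2 (2.22, 5.73 and 5.43), and Sppl2a separated specimen 3 (-2.41, 0.72 and -2.53). The phosphatase receptor Ptprf had -0.10, 1.13 and -1.67. None of the 10 was the subject of a test between specimens, and the part of sex in them was not tested.

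**Figure D5:**
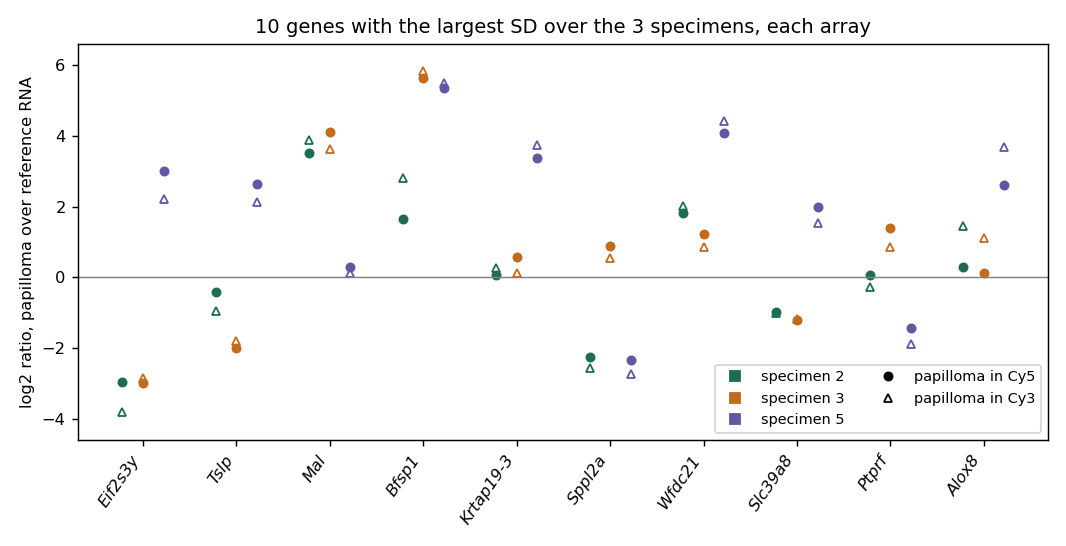
Log2 ratio of papilloma over reference RNA (vertical axis) on each array for the 10 named genes with the largest SD over specimens (horizontal axis), by specimen (colour) and by the papilloma's dye (filled circles Cy5, open triangles Cy3). Eif2s3y, Tslp, Krtap19-3, Wfdc21 and Slc39a8 are highest in specimen 5 on both its arrays, and Mal is lowest there at 0.20.

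The orientation of the dyes mattered about as much as the specimen. Over 20906 probes with a value on all 6 arrays, Pearson's r between the 2 arrays of a specimen was 0.921 to 0.953, and between arrays of different specimens in the same dye 0.921 to 0.966, a description across probes. By limma's test across specimens 5521 features were higher with the papilloma in Cy5 and 1650 with it in Cy3, but only 87 differed by more than 1. Some list medians changed little, for example 2.95 in Cy5 and 3.27 in Cy3 for basal genes and 5.44 and 5.41 for the cornified envelope. Others moved more, with 1.682 in Cy5 and 2.375 in Cy3 for epidermal transcription factors and 1.78 and 2.41 for mast cells. The sebaceous median changed sign, from 0.043 in Cy5 to -0.464 in Cy3. Leaving out specimen 2 left 2650 features higher against 0, and leaving out specimen 5 left 3711. For more than 2-fold lower the count without specimen 2 was 752, against 1482 with all 3. Of the 193 genes named in the text with a 2-fold call, 37 lost it without specimen 2, 26 without specimen 3 and 1 without specimen 5, and none of them changed sign.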

How the data were processed

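Papilloma RNA (TRIzol) and reference RNA were amplified with T7 polymerase, per the labels' protocols, and the deposited log ratios, read here as log2, are the authors' values, 1 per probe and array. The sources used here do not give their normalization, centring, background correction or log base. The table has 37632 probes, with values for 22024 to 26490 on an array. Empty cells have no stated reason, spot signals were not analysed here, and array medians lay between -0.15 and -0.01. Symbols from the platform annotation named 20879 probes. RefSeq (GRCm38.p6) left 12801 symbols as they were and updated 3980, while 157 kept an old symbol.

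A specimen's value was the mean of its 2 arrays, probes of a gene were averaged, and limma 3.58.1 (R 4.3.3) fitted the mean of 3 specimens with eBayes and with treat for an absolute log2 ratio above 1. Both used Benjamini-Hochberg adjustment, two-sided. The fit was tested on simulated data. Named genes are the 15 highest and 15 lowest with 1 sign on all 6 arrays, fixed keratinocyte genes, up to 5 called members per side of a list, and the 10 with the largest SD. Uncalled members that define a list, and further members of the lists, were named after their values were seen. The members and the 53 gene lists were chosen with earlier results of these data known. The lead on 2-fold calls was chosen after seeing the data. Alternatives changed centring, normalization, missing values, probes, dye orientation, variance model and specimens.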

Additional observations from a re-analysis of the deposited data

How the results depend on the processing

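The 6428 features higher against 0 became 4193 with the papilloma in Cy3 alone and 986 when a difference of more than 2-fold was required, and ranged from 2650 to 5379 when 1 specimen was left out. The 7611 lower features became 1482 under the 2-fold requirement, and all other alternatives kept them within 1.5 times. The 2-fold counts, chosen after seeing the data, kept the 986 higher features between 744 and 1100. The count of 1482 lower features ranged from 752 (without specimen 2) to 1492 (without specimen 5) when 1 specimen was left out, and from 1265 to 1730 under the other alternatives. Leaving out 1 specimen leaves 2. Of 3306 values of 251 named genes under the alternatives, 3193 kept their side of the threshold. This count includes changes of sign where neither value was called. A further 80 were no longer past the threshold and 23 came past it. The other 10 changed sign with a call in the main or the alternative setting. With the papilloma in Cy5 alone the means were -0.25 for Col1a2, 0.34 for Hells and 0.26 for Kif23. In Cy3 alone they were -0.053 for Krt31, -0.037 for Lep, -0.004 for Mx1 and -0.12 for Plin1. The cause was not tested. Single probes gave -1.94 and -2.26 for Dst and -0.34 for Egfr. Several probes were measured for 34 named genes, and in 10 of these they lay more than 1.5 apart. Of 193 named genes with a 2-fold call, 54 lost it in at least 1 setting, 18 with Cy5 alone and 12 with Cy3 alone, and at most 7 under median centring, quantile normalization, the rules on missing values, the model with dye and specimen terms or the robust variance model. Without specimen 2 the 37 lost were Atf3, Bbc3, Bcl11b, C3, Cd14, Cd3e, Ckap2, Cpa3, Defb4, Dgat2, Dkk2, Dppa4, E2f1, Egr1, Ell2, Fbln2, Fcgr1, Fdft1, Fosb, Fosl2, Gadd45g, Grb2, Igf2bp3, Itga6, Lcn2, Lpl, Lrig1, Mcm2, Mki67, Ndrg2, Padi3, Pmaip1, Psmb8, Smad3, Timp2, Timp3 and Wnt5a. Without specimen 3 the 26 lost were Atf3, Bmp7, C1qa, C3, Cd163, Dgat2, Dkk2, Fcgr1, Fdft1, Fosl2, Gadd45g, Hoxd11, Igf2, Il1rn, Itga6, Jag1, Lpl, Mfap4, Mrc1, Padi3, Postn, Psmb8, Rpl22, Soat1, Timp3 and Wnt5a. Without specimen 5 Dppa4 lost it. Of 583 list medians under alternatives, 128 moved by more than 1 SD of the specimens' medians, by at most 1.19. In 8 lists with medians within 0.28 of 0 the sign changed, namely ErbB, Ras and ERK, T and NK cells, chemokines and cytokines, embryonic line, fibroblast and dermal matrix, hepatocyte line and sebaceous gland. No paired analysis was possible because only 1 group was tested.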

Other observations

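Groups of genes not described above also had measured members. Of 28 genes of ribosome biogenesis, none passed the 2-fold test in either direction by limma's treat, nor at an unadjusted p under 0.05, and the median was -0.13. The oncogene Myc averaged 0.13. Among 16 ribosomal protein genes Rpl22 was lower by more than 2-fold, at a mean of -2.30, and the others lay between -0.92 and 0.99. Of 22 targets of p53, 2 were higher and 2 lower by more than 2-fold. The higher were Perp, a desmosomal protein of stratified epithelium, at 4.56 over 2 probes at 3.57 and 5.55, and the cell-death gene Pmaip1 at 1.82. The lower were Bbc3 at -2.01 and Ckap2 at -1.45. Cdkn1a, the cell-cycle inhibitor, stood at 0.02. Among 17 genes that restrain the cell cycle, 12 were lower and 3 higher against 0. By more than 2-fold Ndrg2 was higher, at 1.91, and Ndrg1, Cdkn2a and Gadd45g were lower, at -2.82, -2.34 and -1.90.

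Nerve and pigment cells left few measured genes. Of 8 genes of Schwann cells and nerve, Cdh19, a cadherin of Schwann cells, was higher by more than 2-fold, at 3.40, while the myelin genes Mbp and Pmp22 averaged 0.19 and -0.66. The melanocyte enzyme Tyr stood at 0.26. Of 12 skeletal muscle genes 2 were lower by more than 2-fold, Actn3 at -2.11 and Eno3 at -3.38. Myh11, the myosin of smooth muscle, was higher at 3.68 while Cnn1 and Tagln were lower at -2.04 and -1.83.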
